A study of Mus musculus with 12 samples.

Results

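This account covers the effect of RE exercise on the liver transcripts of mice kept on a high-fat diet. It compares the 3 HFD+RE libraries, numbered 3, 4 and 5 in the labels, with the 3 HFD libraries, numbered 1, 2 and 3. These 6 were chosen by their labels alone, out of 12 liver RNA-seq libraries in 4 groups of 3. All mice were male C57BL/6, an inbred laboratory strain, and entered the study at 6 weeks of age. HFD+RE mice ate the high-fat diet D12492 for 8 weeks and then exercised on it for at least 12 weeks. HFD mice ate the same diet with no exercise named, so the kind of diet is common to both groups. The total time on the diet is not given here for HFD mice. The part of diet length or age at sampling was not tested. HFD+AE mice had the same diet with AE exercise, and NC mice a normal diet; both appear below only beside the HFD+RE and HFD values. The labels give RE and AE as abbreviations, which in exercise studies usually stand for resistance and aerobic exercise. No label ties each library to its own mouse. The p-values therefore speak of the spread among these samples, part of which may be technical.

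A long high-fat diet fills mouse hepatocytes with lipid droplets. Male mouse liver also has a pattern of gene expression of its own, set by the pulses of growth hormone in the blood, under which it makes major urinary proteins (the Mup genes), certain cytochrome P450 enzymes and the steroid-metabolising enzyme Hsd3b5. Fatty liver can also come with stress responses, acute phase proteins, immune cells and collagen, and exercise is studied as a way to limit these. Whole liver was sequenced, so for any gene fewer cells of a type and less RNA per cell cannot be told apart.

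The HFD+RE libraries held 51178332, 61089139 and 58163665 counts, and the HFD libraries 44839783, 44373214 and 60308552. Levels are given as CPM, counts scaled to the library total after TMM scaling. Alb, the gene of serum albumin and a defining hepatocyte transcript, stood at 88000, 72900 and 58600 CPM in HFD+RE and at 49800, 60500 and 36700 CPM in HFD. HFD+RE 3 stood apart from the other two libraries of its group. The median absolute log2 difference over genes was 0.55 and 0.53 between HFD+RE 3 and HFD+RE 4 and 5, against 0.27 between HFD+RE 4 and 5. Across groups it was 0.23 and 0.22 between HFD+RE 3 and HFD+AE 1 and 2, so HFD+RE 3 lay nearer to these libraries than to its own group. HFD+AE 3 was at 0.52 and 0.50 from HFD+AE 1 and 2, and nearer to HFD+RE 4 (0.33) and HFD+RE 5 (0.47). Both libraries keep their labels here, and results without them are given where they bear on a call. The share of counts from mitochondrial rRNA genes was 0.685%, 1.11% and 1.71% in HFD+RE 3, 4 and 5, below the 2.45%, 1.76% and 3.26% of HFD 1, 2 and 3. Each gene's log2 level in a library was also taken relative to its mean over the 12 libraries. The rank correlation of this relative level with gene length was 0.22, -0.29 and -0.31 in HFD+RE 3, 4 and 5. It was -0.26, -0.15 and -0.29 in HFD 1, 2 and 3. The labels name no batch. A fit with the gene-length trend removed is among the alternatives given below, and the part of the other differences in the results was not tested.

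The question of the comparison was which liver transcripts differ with RE exercise when the kind of diet is the same. Of 18305 genes tested with edgeR's quasi-likelihood test, 2 (0.0109%) passed an adjusted p below 0.05. Hsd3b5 rose and Themis fell in HFD+RE livers.

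Hsd3b5 encodes an enzyme of steroid inactivation made chiefly by the livers of male mice, and lies on chromosome 3 of mm10 (98618634 to 98630252, minus strand). It stood at 124, 25.2 and 112 CPM in HFD+RE 3, 4 and 5, against 0.272, 0.422 and 0.343 CPM in HFD 1, 2 and 3. The groups lay far apart, although HFD+RE 4 was well below the other two HFD+RE libraries. The group means were 87.1 ± 53.9 CPM in HFD+RE and 0.346 ± 0.0749 CPM in HFD (SD, n = 3 each). The log2 change was 7.97 (SE 0.81, adjusted p = 0.00303). In raw counts these libraries held 6548, 1388 and 6752 reads in HFD+RE and 14, 19 and 24 reads in HFD. Hsd3b5 shares sequence with neighbouring Hsd3b genes, and reads could be split between them. Of these, Hsd3b3 was at 259, 183 and 176 CPM in HFD+RE and 159, 164 and 164 CPM in HFD, and Hsd3b2 was at 95.1, 78.1 and 86.6 CPM in HFD+RE and 60.4, 66.7 and 58.1 CPM in HFD. Both were higher in every HFD+RE library than in every HFD library, by far smaller factors than Hsd3b5. The NC livers held 211, 191 and 89.2 CPM of Hsd3b5, and the test of HFD+RE against NC gave a log2 difference of -0.91 (SE 0.57, adjusted p = 0.333).

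Themis is known as a signalling protein of developing T cells, and lies on chromosome 10 (28668360 to 28883818, plus strand). Its levels were 6.15, 5.25 and 3.84 CPM in HFD+RE 3, 4 and 5, against 24.2, 27.6 and 21.2 CPM in HFD 1, 2 and 3. The means were 5.08 ± 1.16 CPM in HFD+RE and 24.3 ± 3.21 CPM in HFD (SD, n = 3 each), and the log2 change was -2.26 (SE 0.26, adjusted p = 0.00627). Themis did not follow the other T-cell transcripts across the HFD livers. HFD 2 had the highest Themis level of the 3, but the lowest sum of 15 T and NK cell markers, 7.89 CPM against 39.5 CPM in HFD 1 and 78 CPM in HFD 3. HFD+RE remained above NC, where Themis stood at 0.781, 0.631 and 0.973 CPM (log2 difference 2.66, SE 0.28, adjusted p = 0.00111). Against NC, 724 genes (3.96%) were called in HFD+RE in all, 489 of them higher and 235 lower.

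**Figure D1:**
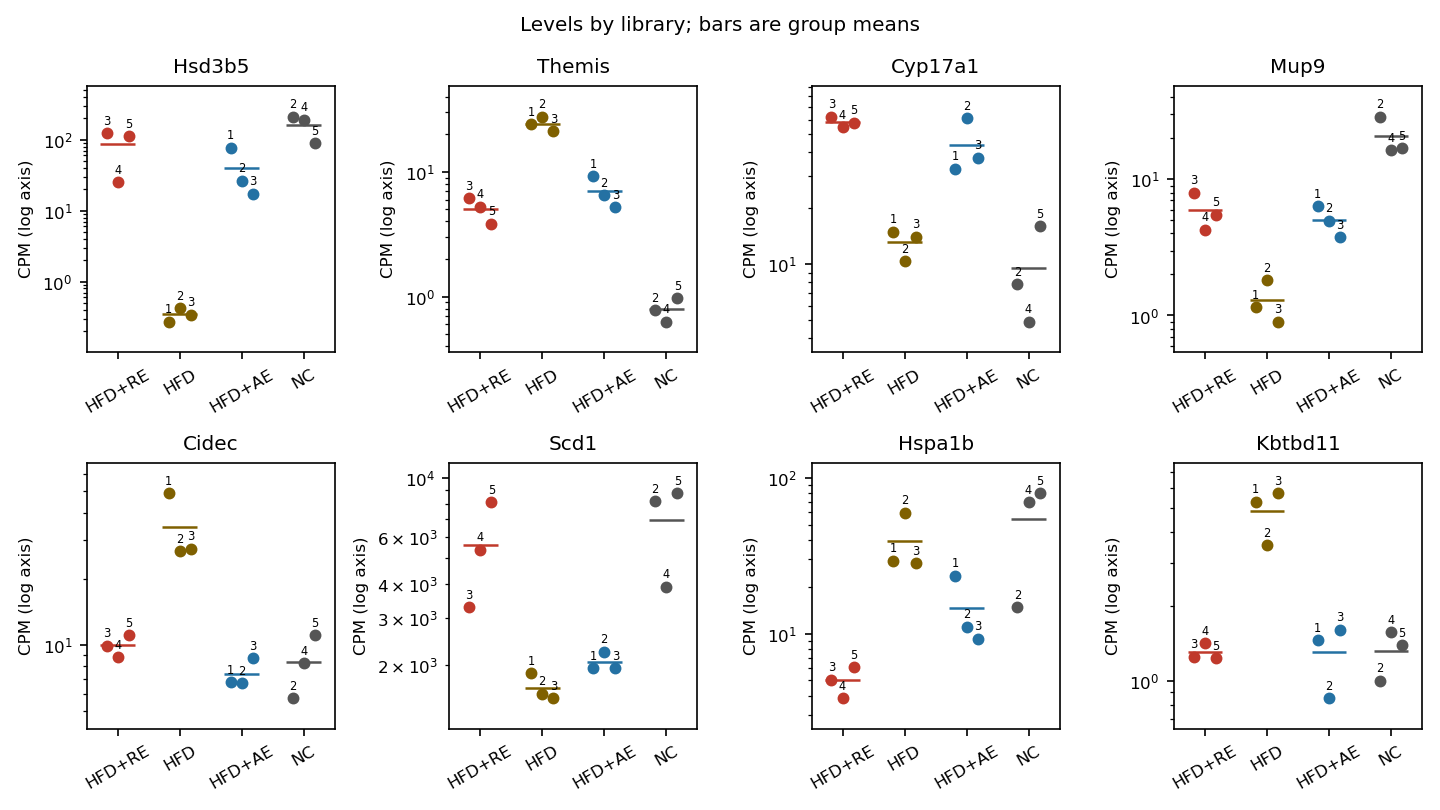
Level of 8 genes in each library, in CPM on a log axis, by group (HFD+RE, HFD, HFD+AE, NC); each point is 1 library with its label number, and bars are group means. The 8 were chosen with results of these data known. Their HFD+RE and HFD libraries do not overlap, as for 7.15% (higher) and 6.99% (lower) of all genes tested. Of the 8, Hsd3b5 and Themis passed the edgeR test.

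Outside these 2 genes the edgeR calls end, and the groups that follow are described by values. DESeq2, run as an alternative, called 209 genes, of which 80 were higher (0.484% of the 16516 genes it adjusted) and 129 lower (0.781%) in HFD+RE. Limma voom with library weights called 548. At an unadjusted p below 0.05 in edgeR, 730 genes were higher (3.99%) and 875 lower (4.78%). Genes whose 3 HFD+RE libraries all lay above the 3 HFD libraries numbered 1309 (7.15%), and those all below 1280 (6.99%). The median log2 change of all genes was 0.04, and 10024 of the 18305 genes had a positive change and 8281 a negative one. Counts for a gene list are to be read against these values.

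**Figure D2:**
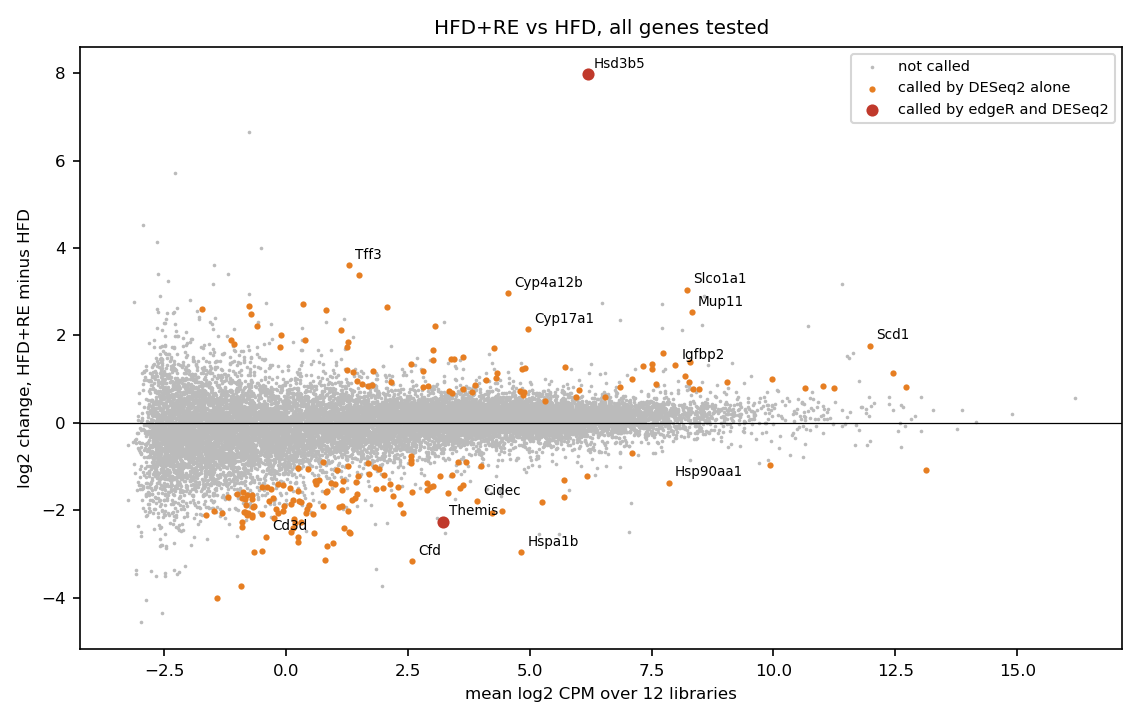
Log2 change in HFD+RE against HFD (vertical axis) and mean log2 CPM over the 12 libraries (horizontal axis) for the 18305 genes tested. Red points are the 2 genes called by edgeR, orange points those called by DESeq2 alone. Hsd3b5, with a change of 7.97, and Themis, with -2.26, are the red points.

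Of 22 male-biased liver genes tested, 21 had a positive change, 1 was called (Hsd3b5), 12 lay entirely above the HFD libraries and none below, and 13 had an unadjusted p below 0.05. Their median log2 change was 1.19, and 7 were called by DESeq2. Cyp4a12b, a fatty acid and androgen-regulated P450, stood at 25, 9.35 and 22.7 CPM in HFD+RE and at 2.02, 3.29 and 1.96 CPM in HFD (log2 change 2.98, SE 0.47, adjusted p = 0.0644). Mup9, one of the urinary protein genes, stood at 7.96, 4.27 and 5.49 CPM in HFD+RE and at 1.15, 1.82 and 0.901 CPM in HFD (2.21, SE 0.35, adjusted p = 0.0644). Slco1a1, an uptake transporter for bile acids and steroid conjugates, stood at 399, 87.1 and 274 CPM in HFD+RE and at 19.8, 54.5 and 17.7 CPM in HFD (3.05, SE 0.66, adjusted p = 0.235). HFD+RE 4 was the lowest HFD+RE library for each of these 3, as for Hsd3b5, yet stayed above every HFD library. Susd4, a complement regulator, was at 21.6, 27.2 and 43.1 CPM in HFD+RE and 10.8, 16.1 and 12.4 CPM in HFD (1.23, SE 0.27, adjusted p = 0.235). C6, a complement component, showed the same order, at 217, 97.3 and 164 CPM in HFD+RE and 50.1, 88 and 51.1 CPM in HFD.

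The Mup genes are nearly identical copies and share reads, so their sum is the safer value. Over 49 Mup genes the sum was 18500, 16600 and 26000 CPM in HFD+RE 3, 4 and 5 and 7610, 11800 and 6420 CPM in HFD 1, 2 and 3. Every HFD+RE library was above every HFD library, and HFD 2 was the highest of its group. NC livers held 27800 to 39100 CPM.

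Genes that are higher in female mouse liver gave a mixed picture: of 18 tested, 5 lay below the HFD libraries and 1 above, with a median of -0.31. The median was -1.028 without HFD+RE 4, -0.163 without HFD+RE 3 and -0.131 without HFD 1. Hao2, a peroxisomal hydroxyacid oxidase, was at 0.473, 1.85 and 0.433 CPM in HFD+RE and 5.76, 5.62 and 3.25 CPM in HFD (log2 change -2.40, SE 0.62, adjusted p = 0.282). Cyp2b9, a female-biased P450, split the HFD+RE group, with 8.77 and 8.27 CPM in HFD+RE 3 and 5 and 201 CPM in HFD+RE 4. The HFD libraries held 281, 260 and 232 CPM (-1.82, SE 0.94, adjusted p = 0.602), and without HFD+RE 4 the change was -4.913 (adjusted p = 0.00864). HFD+RE 4 was thus the library nearest to HFD for Hsd3b5, Slco1a1 and Cyp2b9 alike. Of the 18 genes, 7 had a positive change, and Cyp17a1, a P450 of steroid synthesis, was the 1 above the HFD libraries. Cyp17a1 was at 62.2, 54.6 and 57.7 CPM in HFD+RE and 15, 10.4 and 14.1 CPM in HFD (2.14, SE 0.36, adjusted p = 0.0922). NC livers held 7.83, 4.92 and 16.1 CPM of Cyp17a1, so HFD+RE lay above both diets (HFD+RE against NC 2.59, SE 0.37, adjusted p = 0.00509). The 15 tested members of the growth hormone and IGF axis had a median of 0.16, with 1 above the HFD libraries; the median was -0.016 without HFD+RE 4. Igf1, the main growth factor the liver secretes under growth hormone, was at 773, 610 and 879 CPM in HFD+RE and 517, 742 and 598 CPM in HFD, overlapping between the groups.

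**Figure D3:**
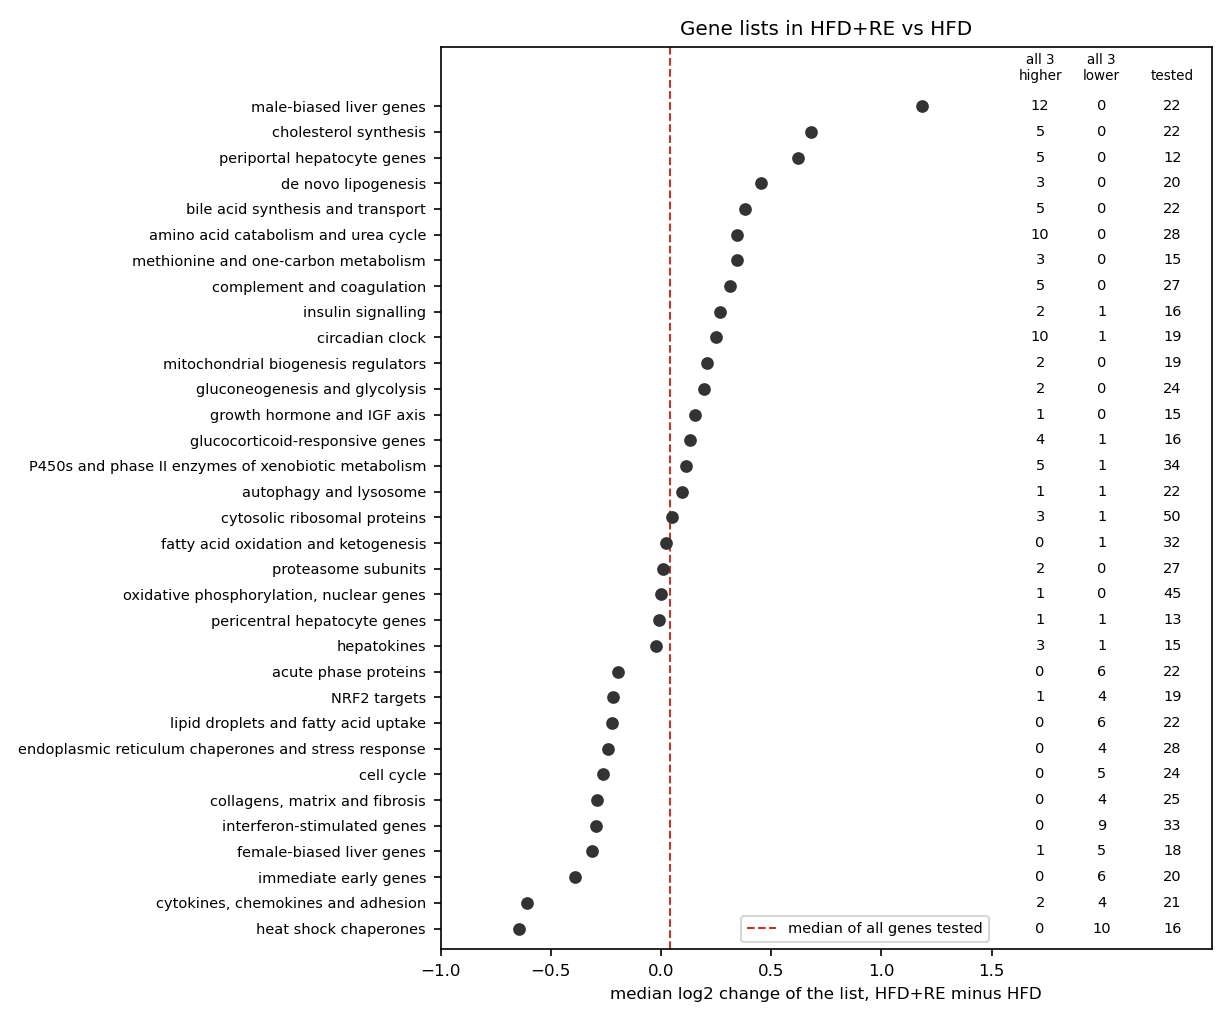
Median log2 change in HFD+RE against HFD for 33 lists of liver genes (points), with the median of all genes tested as a dashed line. The columns at the right give, for each list, how many genes had all 3 HFD+RE libraries above or below all 3 HFD libraries and how many were tested. Male-biased genes have the highest median (1.19), and heat shock chaperones (-0.64) and cytokines (-0.61) the lowest.

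Of the lipid droplet and fatty acid uptake genes, 22 were tested, 6 lay below the HFD libraries and none above, and the median was -0.22. The median was -0.011 without HFD+RE 3, -0.347 without HFD+RE 5 and -0.443 without HFD+RE 4. Cidec, which fuses lipid droplets into larger ones, was at 9.95, 8.83 and 11.1 CPM in HFD+RE and 49, 26.8 and 27.4 CPM in HFD (log2 change -1.79, SE 0.28, adjusted p = 0.0644). It lies on chromosome 6 (113424634 to 113435760). Cidea, a related droplet protein, was at 0.303, 0.545 and 1.6 CPM in HFD+RE and 7.03, 5.96 and 4.41 CPM in HFD (-2.82, SE 0.67, adjusted p = 0.282). Plin4, which coats droplets, was at 26.6, 41.8 and 32.2 CPM in HFD+RE and 70.7, 82.7 and 94.1 CPM in HFD (-1.30, SE 0.29, adjusted p = 0.261). Mogat1, an acyltransferase of triglyceride synthesis, was at 0.643, 2.03 and 1.3 CPM in HFD+RE and 4.5, 5.96 and 4.71 CPM in HFD (-1.93, SE 0.48, adjusted p = 0.282). DESeq2 called these 4. Cd36, a fatty acid transporter, was at 84, 92.4 and 27 CPM in HFD+RE and 127, 190 and 86.9 CPM in HFD, and HFD+RE 4 overlapped HFD (-0.99, SE 0.39, adjusted p = 0.48). The lipid-storing nuclear receptor Pparg was at 9.04, 12.5 and 10.7 CPM in HFD+RE and 15.9, 14.9 and 11.5 CPM in HFD (-0.39, SE 0.21, adjusted p = 0.609). Plin2, another coat protein of droplets, was at 294, 423 and 448 CPM in HFD+RE and 520, 526 and 452 CPM in HFD (-0.36, SE 0.28, adjusted p = 0.733). Of the markers that define adipocytes, Lep was at 0 in all 6 libraries, Adipoq at most 0.0756 CPM and Plin1 at most 0.0727 CPM. Cfd, the adipocyte-secreted complement factor D, was at 2.87, 1.22 and 2.6 CPM in HFD+RE and 9.77, 45 and 5.56 CPM in HFD. The 8 adipocyte markers summed to 2490, 2660 and 2990 CPM in HFD+RE and 3800, 4330 and 3430 CPM in HFD, and 2 of the 4 tested lay below the HFD libraries. Lep, Adipoq, Plin1 and Cfd, at the levels given, account for little of these sums, which came mostly from the list's other members. The part of adipocytes in the droplet gene values was not tested.

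Genes of fat synthesis had positive changes for the most part, 16 of 20. Scd1, the desaturase that makes monounsaturated fatty acids, was at 3280, 5380 and 8090 CPM in HFD+RE and 1860, 1560 and 1500 CPM in HFD (log2 change 1.77, SE 0.34, adjusted p = 0.161). Srebf1, the transcription factor that drives this programme, was at 430, 323 and 610 CPM in HFD+RE and 260, 204 and 237 CPM in HFD (0.96, SE 0.38, adjusted p = 0.479). Of the 20 lipogenic genes tested, 3 lay above the HFD libraries, 6 had an unadjusted p below 0.05 in the higher direction and none in the lower, and the median was 0.46. HFD+RE 5 was the highest library for Scd1, Srebf1, Acly and Fasn. Acly, which makes cytosolic acetyl-CoA, was at 164, 82.5 and 201 CPM in HFD+RE and 110, 96.9 and 82 CPM in HFD. Fasn, the fatty acid synthase, was at 270, 200 and 864 CPM in HFD+RE and 317, 161 and 269 CPM in HFD, and without HFD+RE 5 the list's median was 0.114, with 1 gene at such a p. Without HFD 2 or HFD 3 that count was 2.

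All 22 genes of cholesterol synthesis had a positive change, against 10024 of all 18305 genes tested. Their median was 0.68, with 5 above the HFD libraries and 7 at an unadjusted p below 0.05. Insig1, which holds the pathway in check, was at 208, 162 and 234 CPM in HFD+RE and 150, 128 and 79.8 CPM in HFD (log2 change 0.76, SE 0.35, adjusted p = 0.56). Msmo1, a methylsterol oxidase, was at 88.2, 93.9 and 171 CPM in HFD+RE and 71.5, 55.9 and 61.6 CPM in HFD (0.90, SE 0.39, adjusted p = 0.536). HFD+RE 5 was the highest library for both, and without it the list's median was 0.292 with 1 gene at such a p, against 15 without HFD+RE 3, 3 without HFD 2 and 2 without HFD 3. Sqle and Hmgcs1, other enzymes of the pathway, overlapped between the groups and had changes of 0.65 (SE 0.56) and 0.20 (SE 0.55).

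Bile acid genes had a median of 0.38, with 5 of 22 above the HFD libraries and none below; without HFD+RE 3 the median was 0.185. Slc10a1, the main uptake transporter of bile salts, was at 701, 592 and 501 CPM in HFD+RE and 290, 419 and 229 CPM in HFD (log2 change 0.94, SE 0.23, adjusted p = 0.282). Cyp27a1, of the alternative route of synthesis, was at 285, 377 and 345 CPM in HFD+RE and 247, 276 and 250 CPM in HFD (0.38, SE 0.17, adjusted p = 0.544). Cyp7b1, of the same route, was at 120, 58.5 and 84.5 CPM in HFD+RE and 34.5, 59.8 and 28 CPM in HFD, overlapping only at HFD+RE 4 and HFD 2 (1.10, SE 0.34, adjusted p = 0.339). Cyp7a1, which commits cholesterol to bile acids, was at 348, 133 and 133 CPM in HFD+RE and 93.2, 164 and 187 CPM in HFD, and Cyp8b1 at 217, 452 and 347 CPM in HFD+RE and 248, 426 and 348 CPM in HFD. Neither separated the groups. Of 34 P450 and phase II genes of xenobiotic metabolism, 5 lay above and 1 below the HFD libraries, and the median was 0.11 (0.324 without HFD 2 and 0.302 without HFD+RE 5). Cyp3a11, a main drug-metabolising P450, was at 679, 419 and 410 CPM in HFD+RE and 718, 555 and 305 CPM in HFD, against 4550, 5930 and 3310 CPM in NC.

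Of 28 enzymes of amino acid breakdown and the urea cycle tested, 10 lay above the HFD libraries and none below, 8 had an unadjusted p below 0.05 (3 without HFD 1 and 5 without HFD 3 or HFD+RE 3), and the median was 0.35. Gls2, the liver glutaminase, was at 539, 436 and 452 CPM in HFD+RE and 251, 319 and 259 CPM in HFD (log2 change 0.78, SE 0.19, adjusted p = 0.282). Ass1, which makes argininosuccinate in the urea cycle, was at 3030, 3060 and 2920 CPM in HFD+RE and 1620, 1590 and 1950 CPM in HFD (0.81, SE 0.21, adjusted p = 0.302). Arg1, which releases urea, was at 1530, 1380 and 1580 CPM in HFD+RE and 1050, 1120 and 1010 CPM in HFD (0.50, SE 0.18, adjusted p = 0.439). Got1, a transaminase, was at 293, 184 and 215 CPM in HFD+RE and 93.5, 115 and 96.3 CPM in HFD (1.18, SE 0.44, adjusted p = 0.448). Gls2 and Ass1 are also among the 12 periportal hepatocyte genes, of which 5 lay above the HFD libraries and none below, with a median of 0.62; the 13 pericentral genes had a median of -0.01 (-0.107 to 0.176 with each library left out). Cps1, which starts the urea cycle, was at 5280, 1790 and 1100 CPM in HFD+RE and 706, 1650 and 553 CPM in HFD, so its mean change of 1.49 (SE 0.52) came largely from HFD+RE 3. In methionine metabolism, Gnmt, the glycine methyltransferase, was at 1320, 1290 and 878 CPM in HFD+RE and 465, 763 and 512 CPM in HFD (SE of the log2 change 0.25, adjusted p = 0.282). DESeq2 called Gls2, Ass1 and Gnmt. The summed hepatocyte markers stood at 114000, 113000 and 92800 CPM in HFD+RE and 76600, 88600 and 62700 CPM in HFD. They were higher in every HFD+RE library than in every HFD library, as were Gls2, Ass1 and Gnmt. Of the 6 markers tested, 0 lay apart between the groups by themselves. Within HFD the sum did not follow Ass1, which was highest in HFD 3, where the sum was lowest. The part of the hepatocyte share in the result was not tested.

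Of the 33 function lists, the heat shock chaperones had the lowest median with all libraries, -0.64, next to -0.61 for the cytokine list, which was the lower without HFD+RE 3 (-0.907, against -0.644 for the chaperones). Of 16 tested, 10 lay below the HFD libraries and none above, 9 had an unadjusted p below 0.05, and DESeq2 called 3. Hspa1b, an inducible chaperone of the family that refolds damaged proteins, was at 5.07, 3.85 and 6.11 CPM in HFD+RE 3, 4 and 5 and at 29.4, 59.9 and 28.2 CPM in HFD 1, 2 and 3 (log2 change -2.97, SE 0.56, adjusted p = 0.129). Its close copy Hspa1a was at 0.454, 0.309 and 0.416 CPM in HFD+RE and 1.77, 2.82 and 2.07 CPM in HFD (-2.49, SE 0.65, adjusted p = 0.297); reads of these copies can be split between them. Hsp90aa1, the inducible cytosolic partner of many signalling proteins, was at 117, 115 and 121 CPM in HFD+RE and 307, 331 and 273 CPM in HFD (-1.37, SE 0.30, adjusted p = 0.249). The 3 HFD+RE libraries were close to each other for these genes, HFD+RE 3 included. Hspb1, a small heat shock protein, was at 5.37, 13.3 and 15.6 CPM in HFD+RE and 39.6, 35.8 and 26.2 CPM in HFD (-1.57, SE 0.51, adjusted p = 0.362). The constitutive Hspa8 lay below HFD with a smaller difference, at 795, 816 and 741 CPM in HFD+RE and 1120, 1280 and 1090 CPM in HFD (-0.57, SE 0.20, adjusted p = 0.428). Hspd1, the mitochondrial chaperonin, overlapped, at 427, 280 and 267 CPM in HFD+RE and 305, 423 and 269 CPM in HFD. The list's median lay between -0.72 and -0.539 with each of the 6 libraries left out in turn, with 6 to 9 genes at an unadjusted p below 0.05.

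NC levels are given for Hspa1b and Hsp90aa1, and for both NC 2 lay below every HFD library and NC 4 above every HFD library. Hspa1b was at 14.8, 69.6 and 79.7 CPM in NC, and HFD+RE was lower than NC as well (log2 difference -3.45, SE 0.57, adjusted p = 0.00916). Hsp90aa1, at 214, 518 and 301 CPM in NC, differed from HFD+RE in the same direction (-1.55, SE 0.30, adjusted p = 0.0172).

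Heat shock genes are induced by the transcription factor HSF1 through inverted repeats of the unit GAA in their promoters. The 250 bases before the start of 11 of the 16 genes (RefSeq, GRCm38.p6) were searched for GAANNTTC, which reads the same on both strands. It was in 5 of the 11, against 6.78% of the 27025 promoters of that length, which did not cover every chromosome. Of the 11, 1 (Hspb1) held it 2 times, against 0.226%. Hsp90aa1 and Hspa8 were not among the 11. The list is of genes known for this element, so the shares do not bear on RE exercise. The promoters of the copies Hspa1a and Hspa1b and of Hspb1 are shown because the values of these genes lay apart between the groups and each holds the motif, which is in capitals. Hspa1a is at chr17:34972157-34972406 and Hspa1b at chr17:34959239-34959488 on the minus strand, and Hspb1 at chr5:135887669-135887918 on the plus strand.
Hspa1a: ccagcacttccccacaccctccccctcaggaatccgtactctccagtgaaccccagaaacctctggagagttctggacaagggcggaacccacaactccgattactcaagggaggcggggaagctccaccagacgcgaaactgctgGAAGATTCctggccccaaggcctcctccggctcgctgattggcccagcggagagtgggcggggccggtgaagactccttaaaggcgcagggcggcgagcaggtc
Hspa1b: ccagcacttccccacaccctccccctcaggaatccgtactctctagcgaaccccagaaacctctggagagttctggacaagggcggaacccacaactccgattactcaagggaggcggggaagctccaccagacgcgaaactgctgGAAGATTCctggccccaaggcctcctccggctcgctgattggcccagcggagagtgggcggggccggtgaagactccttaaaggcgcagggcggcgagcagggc
Hspb1: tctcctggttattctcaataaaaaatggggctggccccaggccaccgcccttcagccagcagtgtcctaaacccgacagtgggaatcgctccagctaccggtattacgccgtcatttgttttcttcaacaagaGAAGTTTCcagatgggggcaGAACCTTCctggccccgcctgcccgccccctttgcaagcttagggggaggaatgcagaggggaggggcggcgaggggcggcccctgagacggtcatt
The Hspa1a and Hspa1b windows are identical at 247 of 250 aligned bases, and in both the motif begins 104 bases before the start. In Hspb1 it begins 117 and 97 bases before the start. Hsph1, Dnajb1, Bag3 and Chordc1, whose libraries also lay apart, hold no match in this window, and Dnaja1 and Hspe1, whose libraries overlapped, hold 1 each.

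Chaperones and stress genes of the endoplasmic reticulum had a median of -0.24 over 28 genes, with 4 below the HFD libraries and none above. Ddit3, a transcription factor of the stress response, was at 7.2, 7.85 and 8.4 CPM in HFD+RE and 17.8, 19.8 and 16.3 CPM in HFD (log2 change -1.20, SE 0.28, adjusted p = 0.279). Creld2 and Manf, secreted proteins of the stressed reticulum, had changes of -1.69 (SE 0.46) and -1.22 (SE 0.33), both with an adjusted p of 0.304. For Creld2 the values were 12.1, 18.3 and 17 CPM in HFD+RE and 44.9, 78 and 29.8 CPM in HFD. Hspa5, the main chaperone of the reticulum, was at 455, 285 and 275 CPM in HFD+RE and 524, 1050 and 349 CPM in HFD, overlapping at HFD+RE 3 and HFD 3. Without HFD 2, the library highest in Creld2 and Hspa5, the list's median was 0.07. DESeq2 called Ddit3, Creld2 and Manf. Asns, the asparagine synthetase, was called by DESeq2 in the other direction, but on HFD+RE 3 above all: 3.14, 0.145 and 0.899 CPM in HFD+RE and 0.253, 0.178 and 0.2 CPM in HFD.

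Immediate early genes, which respond quickly to signals, had a median of -0.39 over 20 genes, with 6 below the HFD libraries, none above, and 7 at an unadjusted p below 0.05 (4 without HFD+RE 5). Jun, a subunit of the AP-1 transcription factor, was at 5.71, 13.4 and 12.9 CPM in HFD+RE and 34.1, 26.6 and 29.2 CPM in HFD (log2 change -1.49, SE 0.46, adjusted p = 0.339). Klf6, a zinc finger factor of injured liver, was at 11.4, 11.3 and 13.3 CPM in HFD+RE and 30.4, 18.9 and 22.4 CPM in HFD (-0.99, SE 0.24, adjusted p = 0.282). Cdkn1a, a cell cycle inhibitor, was at 1.8, 2.83 and 1.08 CPM in HFD+RE and 6.05, 6.96 and 7.57 CPM in HFD (-1.85, SE 0.34, adjusted p = 0.115).

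Acute phase genes split into a part that was lower and a part that was not: of 22 tested, 6 lay below the HFD libraries, none above, and the median was -0.19. Without HFD 2 the median was 0.043, with 6 genes higher and 6 lower at an unadjusted p below 0.05; without HFD+RE 5 it was -0.048, and with each of the other 4 left out it was -0.373 to -0.224. The 6 were Saa1, Saa2, Saa3, Orm2, Orm3 and Lcn2. Lcn2, an iron-binding protein of the acute phase, was at 7.39, 34.3 and 8.49 CPM in HFD+RE and 79.7, 122 and 91 CPM in HFD (log2 change -2.54, SE 0.87, adjusted p = 0.391). Saa1, a serum amyloid, was at 35.9, 71.2 and 34 CPM in HFD+RE and 189, 428 and 185 CPM in HFD (-2.50, SE 0.76, adjusted p = 0.336). HFD+RE 4 was the highest HFD+RE library and HFD 2 the highest HFD library for both. Saa and Orm genes share reads with their copies.

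Of 33 interferon-stimulated genes, 30 had a negative change, 9 lay below the HFD libraries and none above, and the median was -0.30. Rsad2, an antiviral enzyme, was at 9.02, 10.9 and 8.19 CPM in HFD+RE and 16.9, 15.5 and 19.9 CPM in HFD (log2 change -0.90, SE 0.22, adjusted p = 0.282). Among 21 cytokines, chemokines and adhesion genes, 4 lay below and 2 above, with a median of -0.61 (-0.364 without HFD+RE 5). Ccl2, which recruits monocytes, was at 0.246, 0.327 and 0.266 CPM in HFD+RE and 1.87, 0.578 and 1.03 CPM in HFD (-2.04, SE 0.43, adjusted p = 0.235). Of 25 collagen and matrix genes, 4 lay below, none above, and 8 had an unadjusted p below 0.05 (2 without HFD 1, 4 without HFD+RE 4 and 4 without HFD+RE 5). Col1a1, the main fibrillar collagen of scar tissue, was at 4.46, 3.2 and 4.13 CPM in HFD+RE and 16.7, 7.53 and 11 CPM in HFD (-1.58, SE 0.41, adjusted p = 0.282). Col1a2, its partner chain, was at 8.26, 4.6 and 6.69 CPM in HFD+RE and 21.4, 10.7 and 13.5 CPM in HFD (-1.22, SE 0.33, adjusted p = 0.304). Col3a1, another fibrillar collagen, was at 18.5, 8.12 and 13.5 CPM in HFD+RE and 35.9, 21.3 and 19 CPM in HFD (-0.93, SE 0.29, adjusted p = 0.34). The 12 stellate cell markers, of the cells that make most liver collagen, had a median of 0.07 (-0.049 to 0.139 with each library left out).

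T and NK cell markers had the lowest median of the lists of cell types, -2.03 over 15 genes, and 13 had an unadjusted p below 0.05 in the lower direction. Without HFD 3 the median was -1.204 and 3 genes had such a p; without HFD+RE 3 these were -1.681 and 7. Of the 15, 2 lay below the HFD libraries in full. Their sum was 8.32, 10.6 and 14.1 CPM in HFD+RE 3, 4 and 5 and 39.5, 7.89 and 78 CPM in HFD 1, 2 and 3. The groups overlapped, because HFD 2 lay below every HFD+RE library while HFD 1 and 3 lay well above. Cd3d, a subunit of the T-cell receptor complex, was at 0.227, 0.327 and 0.333 CPM in HFD+RE and 1.83, 0.378 and 3.2 CPM in HFD (log2 change -2.61, SE 0.72, adjusted p = 0.304). B and plasma cell markers showed the same split, with sums of 78.5, 86 and 135 CPM in HFD+RE and 164, 58.3 and 326 CPM in HFD. Kupffer cell markers, of the liver's resident macrophages, summed to 638, 405 and 205 CPM in HFD+RE and 264, 460 and 259 CPM in HFD. Their median was 0.32, and between -0.296 (without HFD+RE 3) and 0.686 (without HFD 2) with each library left out. Trem2, a receptor of lipid-associated macrophages, was at 1.08, 1.4 and 0.3 CPM in HFD+RE and 1.63, 0.889 and 0.729 CPM in HFD, and the 12 markers of recruited macrophages had a median of -0.71, which was -0.259 without HFD 1. The part of the immune cells in the interferon and cytokine values was not tested.

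**Figure D4:**
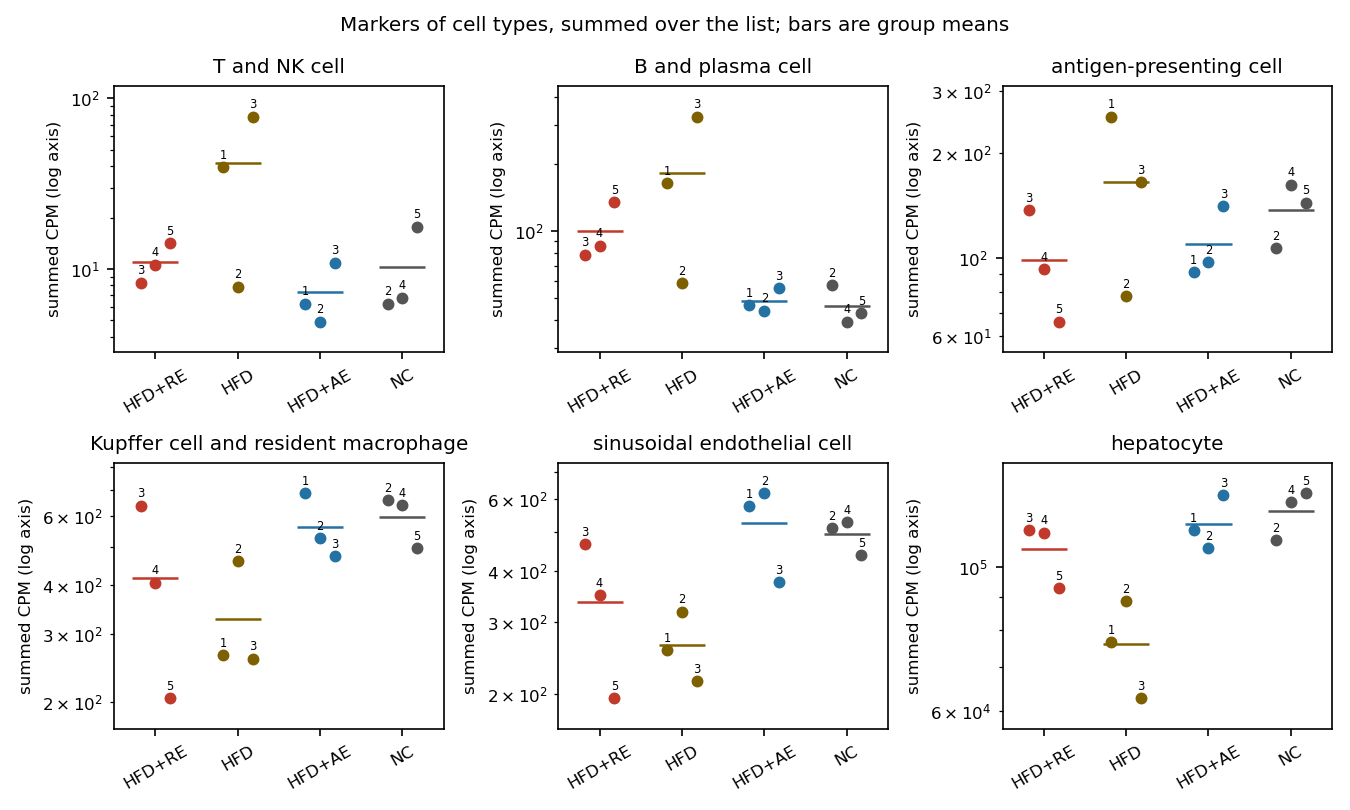
Summed CPM of 6 lists of cell type markers in each library, on a log axis, by group (HFD+RE, HFD, HFD+AE, NC); points carry the library's label number and bars are group means. HFD 2 lies below the HFD+RE libraries for T and NK cell markers (7.89 CPM), with HFD 1 and 3 far above (39.5 and 78 CPM).

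Several lists stood near the values of all genes. Genes of fatty acid oxidation and ketogenesis had a median of 0.02 over 32 genes, with 1 below the HFD libraries and none above. Nuclear genes of oxidative phosphorylation had a median of 0.00 over 45, proteasome subunits 0.01 over 27, and cytosolic ribosomal proteins 0.05 over 50. With each library left out these medians lay between -0.125 and 0.198, -0.158 and 0.194, -0.023 and 0.12, and -0.114 and 0.291, in that order. Ppara, the receptor that drives fat oxidation, was at 236, 187 and 162 CPM in HFD+RE and 174, 203 and 200 CPM in HFD (log2 change 0.02, SE 0.17). Ppargc1a, a coactivator of mitochondrial genes, was at 14.7, 10.2 and 14.3 CPM in HFD+RE and 15, 10 and 13.4 CPM in HFD (0.03, SE 0.25). Pck1, which commits carbon to new glucose, was at 2120, 2890 and 2710 CPM in HFD+RE and 2550, 2630 and 1870 CPM in HFD (0.13, SE 0.22). Cpt1a, the entry step of mitochondrial fat oxidation, was at 776, 595 and 452 CPM in HFD+RE and 452, 615 and 387 CPM in HFD (0.33, SE 0.25). Fgf21, a fasting hormone of the liver, was at 2.87, 4.58 and 6.09 CPM in HFD+RE and 8.76, 3.38 and 10.7 CPM in HFD (-0.76, SE 0.47). A missed threshold does not show that these genes are alike in both groups. None of the 24 genes of gluconeogenesis and glycolysis had an unadjusted p below 0.05, although 23 had a positive change (median 0.19, 2 above the HFD libraries).

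Among genes outside the lists, 3 nuclear genes were next to the threshold, each with an adjusted p of 0.0644 and each called by DESeq2. Kbtbd11 was at 1.25, 1.42 and 1.23 CPM in HFD+RE and 5.29, 3.53 and 5.72 CPM in HFD (log2 change -1.90, SE 0.31). Anxa2, a calcium-dependent membrane-binding protein, was at 8.26, 7.68 and 8.75 CPM in HFD+RE and 31.3, 15.2 and 22.6 CPM in HFD (-1.48, SE 0.24). Fam126a was at 6.98, 8.99 and 7.79 CPM in HFD+RE and 18.1, 26.7 and 19 CPM in HFD (-1.43, SE 0.23). The mitochondrial gene mt-Nd4l, with the same adjusted p, was at 6.22, 9.97 and 16 CPM in HFD+RE and 54.3, 27.4 and 53.6 CPM in HFD (-2.07, SE 0.33). The share of mitochondrial rRNA differed between the libraries in the same direction. These genes were named after their values were seen.

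A direct comparison asked whether RE and AE livers differ on the same diet. Of 18305 genes, 0 (0%) passed in HFD+RE against HFD+AE by edgeR, whose smallest adjusted p was 0.518, and 1468 (8.02%) had an unadjusted p below 0.05. DESeq2 called 32, of which 22 were higher and 10 lower in HFD+RE. The count was 5976 by limma voom, which gave HFD+RE 3 a weight of 0.213 and HFD+AE 3 a weight of 0.224, and 4170 by edgeR without HFD+RE 3 and HFD+AE 3, the libraries that stood apart from their groups. Each of these libraries was picked after it was seen to lie nearer to libraries of the other exercise group, which favours a higher count. The 4170 calls therefore do not bear on whether the exercise types differ. HFD+RE and HFD+AE were set against the same HFD libraries, so the values are given side by side. Hsd3b5 differed from HFD by 7.97 in HFD+RE and by 6.86 in HFD+AE, where it stood at 77, 26.6 and 17.4 CPM (adjusted p = 0.0111). Themis differed by -2.26 in HFD+RE and by -1.80 in HFD+AE (adjusted p = 0.0383). Cidec differed by -1.79 in HFD+RE and by -2.22 in HFD+AE, where it stood at 6.79, 6.7 and 8.71 CPM (adjusted p = 0.0222). Scd1 was at 3280, 5380 and 8090 CPM in HFD+RE and at 1940, 2240 and 1940 CPM in HFD+AE, a direct difference of 1.45 (adjusted p = 0.606). All 3 HFD+RE libraries were above all 3 HFD+AE libraries. The HFD+AE libraries in turn all lay above the 3 HFD libraries for Scd1, by a smaller margin.

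The genes of smallest p between the exercise groups lay in both directions, and 3 with known roles that were lower in HFD+RE are given, chosen after their values were seen. Igfbp1, a secreted IGF-binding protein induced by fasting, was at 19.3, 12.8 and 10.2 CPM in HFD+RE and 92.4, 99.6 and 66.1 CPM in HFD+AE (log2 difference -2.61, adjusted p = 0.518). HFD livers held 17.3, 30.4 and 6.15 CPM, so HFD+RE overlapped HFD for this gene while HFD+AE lay above both. Nr4a1, an orphan nuclear receptor of the immediate early class, was at 2.33, 1.38 and 1.5 CPM in HFD+RE and 6.98, 11.6 and 3.34 CPM in HFD+AE (-2.08, adjusted p = 0.518). Zbtb16, a zinc finger repressor, was at 21, 13.3 and 15.7 CPM in HFD+RE and 90.7, 73.8 and 33.9 CPM in HFD+AE (-1.99, adjusted p = 0.518). For each of these 3 the HFD+RE libraries lay entirely below the HFD+AE libraries. The choice by smallest p in this comparison favours such a gap, so it adds no support. The share of all genes with such a gap between HFD+RE and HFD+AE is not given here.

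The number of calls between HFD+RE and HFD rested on single libraries. By edgeR it was 53 without HFD 2, of which 10 were higher and 43 lower in HFD+RE, 7 without HFD+RE 4 and 3 without HFD+RE 3, against 2 with all libraries. By DESeq2 it was 490 without HFD 2, 36 without HFD 1 and 48 without HFD 3, against 209. Of the 209 genes, 98 were also called without HFD+RE 3 and 181 without HFD 2, but 34 without HFD 1. Hsd3b5 and Themis passed with any single library left out. Of the other genes named above or further on, Cidec, Anxa2, Ccl2, Cyp4a12b, Enho, Kbtbd11, mt-Nd4l, Mup9 and Slc10a1 passed without HFD 2 (adjusted p 0.0216 to 0.0494). Cyp2b9, Cyp4a12b and Mup9 passed without HFD+RE 4, and mt-Nd4l without HFD+RE 5. Cidec, Cyp17a1, Cyp4a12b, Fam126a, Hspa1b, Mup9 and Saa2 passed without 1 of the HFD+AE or NC libraries (adjusted p 0.0185 to 0.0489). Without HFD+RE 3 and HFD+AE 3, both apart from their groups, Hsd3b5 had an adjusted p of 0.0788 and Themis 0.00417.

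**Figure D5:**
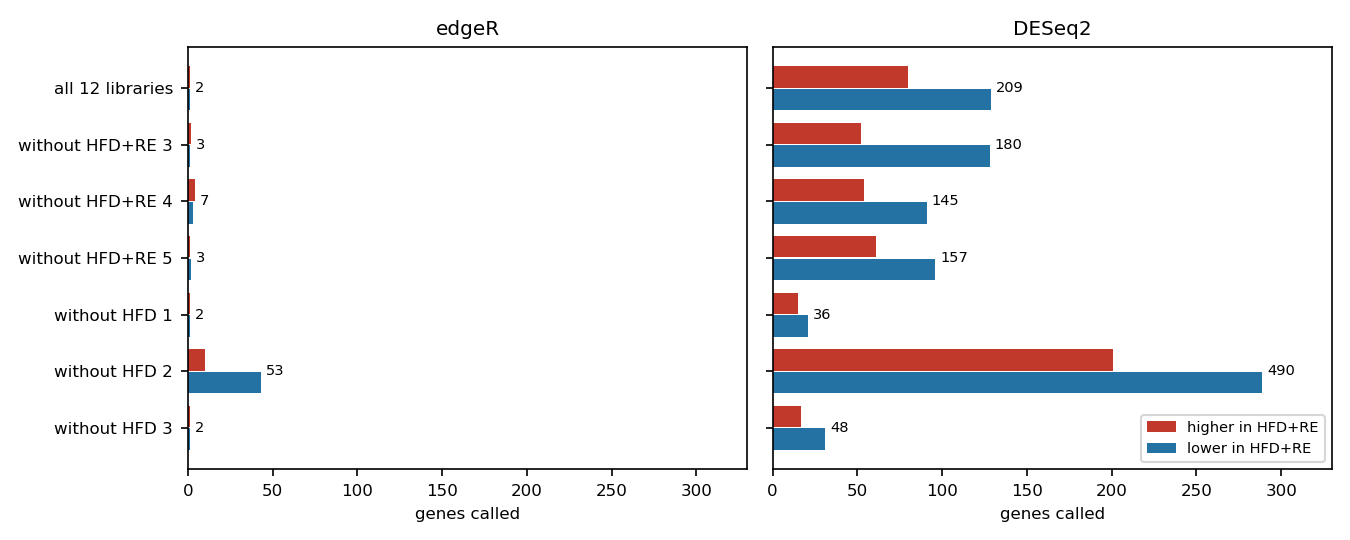
Number of genes called in HFD+RE against HFD (horizontal axis) by edgeR (left) and DESeq2 (right), with all libraries and with each of the 6 libraries left out; red bars count genes higher and blue bars genes lower in HFD+RE, and the number is their sum. Leaving out HFD 2 gives the most calls with both tools, 53 and 490.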

How the data were processed

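Liver RNA-seq of 12 libraries in 4 groups of 3 was analysed, grouped by the labels' treatment. The authors deposited 1 table of whole-number read counts per gene without normalization, counted by featureCounts 2.0.6 per the file headers. Reads were handled with fastp and HISAT2 2.2.1 on mm10, and DESeq2 1.40.1 was used too, per the submitters' processing notes. Not given in the sources used here are the annotation release, the strand setting and how multi-mapping reads were counted. Genes with near-identical copies or an overlapping partner on the other strand are therefore uncertain.

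Of 55291 genes, 18305 passed edgeR's low-count filter. The test was edgeR 4.0.16 under R 4.3.3 (quasi-likelihood F-test, TMM scaling, robust dispersion) in 1 model of all 12 libraries, with calls at a Benjamini-Hochberg adjusted p below 0.05 over all genes tested. Every adjusted p is from this test unless DESeq2 1.42.0 is named, which gave none for 1789 genes. SE is the log2 change divided by the root of F. CPM are counts scaled to the TMM-adjusted library total. The fit was tested on simulated counts with known changes, the same dispersion for all genes and no library apart from its group. It therefore does not show how the fit behaves on libraries as uneven as these.

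Counts differed beyond sampling noise in every pair of the 12 libraries (smallest chi-square per degree of freedom 61), so none was taken for a library deposited 2 times. Depth ran from 44373214 to 77665729 counts.

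Genes were named by a rule: up to 12 called in each direction, up to 4 called per list, and 28 chosen genes whatever their test gave, with another chosen gene not reported here; since 2 were called, list members of smallest p are given as values. The 33 function lists, 14 marker lists, named genes and this comparison were chosen with earlier results of these data known, and lists carry no test of their own. The promoter motif was chosen after the values were seen. Alternatives were another scaling (RLE), no filter, DESeq2, limma 3.58.1 (voom with library weights), only the groups compared, a gene-length trend removed, a replicate block and each library left out. Leaving out HFD+RE 3 with HFD+AE 3 was added after seeing the data.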

Additional observations from a re-analysis of the deposited data

Results flagged for a closer look

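Genes were looked at for opposite directions of HFD+RE and HFD+AE from the HFD mean, with every library of one group on one side and every library of the other on the opposite side. Pdk4, the kinase that restrains pyruvate oxidation, showed this. It was at 1.74, 2.11 and 1.51 CPM in HFD+RE and 5.58, 6.22 and 6.67 CPM in HFD+AE, with 3.93, 7.82 and 3.12 CPM in HFD. The direct log2 difference of HFD+RE from HFD+AE was -1.78 with an adjusted p of 0.556 (edgeR), so it did not pass. Mup20, a urinary protein gene with a pheromone role, was at 1800, 2150 and 3110 CPM in HFD+RE and 1160, 870 and 853 CPM in HFD+AE, with 2000, 1040 and 1690 CPM in HFD. Its direct difference was 1.29 with an adjusted p of 0.606. Mup20 shares reads with its copies. Zbtb16, the zinc finger repressor, was at 21, 13.3 and 15.7 CPM in HFD+RE and 90.7, 73.8 and 33.9 CPM in HFD+AE, with 28, 33.6 and 13.7 CPM in HFD. Its direct difference was -1.99 with an adjusted p of 0.518.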

How the results depend on the processing

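The count of genes called in HFD+RE against HFD, 2 in edgeR with all libraries, was 43 without the low-count filter, 209 by DESeq2, 548 by limma voom with library weights and 1 with a replicate block. It was 5 without HFD+RE 3 and HFD+AE 3, and between 2 and 53 with each library left out. RLE scaling, the fit of only the groups compared and the removal of the length trend gave 2 or 3. The DESeq2 count was between 36 and 490 with each HFD+RE or HFD library left out in turn. It was 622 without HFD+RE 3 and HFD+AE 3, and DESeq2 was not run without a single HFD+AE or NC library. HFD+RE and HFD share only the number 3, and the deviations of HFD+RE 3 and HFD 3 from their group means correlated at -0.27, so the numbers are not taken to pair the libraries. Themis had an adjusted p of 0.291 under the replicate block. For HFD+RE against HFD+AE, 0 calls in edgeR became 2 without the filter, 32 by DESeq2, 5976 by limma voom, 4170 without HFD+RE 3 and HFD+AE 3, and 0 to 2 with each library left out. The cause of these moves was not tested, except that fewer libraries or more genes entered some fits. HFD+RE 3 and HFD+AE 3 were picked after each was seen to lie near the other exercise group. The 4170 calls without them therefore do not bear on RE against AE.

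For single genes, 1698 values kept their direction and side of the threshold, 119 passed it where the edgeR fit did not, 2 lost it and 39 turned sign, all of them of genes that had not passed. The log2 change of Ppara was -0.017 by limma voom, -0.012 without the length trend and -0.131 without HFD+RE 3 and HFD+AE 3. Under the same 3 settings Ppargc1a had -0.183, -0.048 and -0.056, and Cyp8b1 0.446, 0.00 and 0.235. Cyp7a1 was -0.147 without HFD+RE 3 and HFD+AE 3. Under the replicate block Cyp3a11 was 0.192, Trem2 0.206, Hmgcs1 -0.121, Hspd1 0.208, Igfbp1 0.755, Nr4a1 0.047 and Zbtb16 0.075. With each library left out in turn the range was -0.137 to 0.142 for Ppara, -0.115 to 0.185 for Ppargc1a, -0.268 to 0.229 for Cyp8b1, -0.155 to 0.706 for Cyp7a1 and -0.008 to 0.252 for Pck1. It was -0.343 to 0.222 for Cyp3a11, -0.654 to 0.199 for Trem2, -0.08 to 1.19 for Fasn, -0.687 to 0.572 for Hmgcs1, -0.35 to 1.08 for Sqle, -0.284 to 0.18 for Hspd1 and -0.756 to 0.277 for Igfbp1. Every library held at least 44373214 counts.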

Other observations

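Of 19 circadian clock genes tested, 10 lay above the HFD libraries in all 3 HFD+RE libraries and 1 below, against 7.15% and 6.99% of all genes, with a median log2 change of 0.25, which was 0.102 without HFD+RE 3 and 0.164 without HFD+RE 4. None was called by edgeR or DESeq2, and 5 had an unadjusted p below 0.05 (1 without HFD 3, and 3 without HFD 2, HFD+RE 3 or HFD+RE 5). Of the 19 genes, 11 had a positive change and 8 a negative one, and the genes given here are from those that rose. Dbp, a clock output transcription factor, was at 83.3, 114 and 127 CPM in HFD+RE and 68.1, 35.4 and 34.7 CPM in HFD (log2 change 1.23, SE 0.48, adjusted p = 0.468). Nr1d1, a repressor of the clock, was at 51.4, 30.2 and 32.3 CPM in HFD+RE and 29.3, 22.5 and 16.2 CPM in HFD (0.75, SE 0.35, adjusted p = 0.58). The labels give no hour of sampling, and its part in these values was not tested.

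Of 19 NRF2 targets, genes of the antioxidant response, 4 lay below the HFD libraries and 1 above. Nqo1, a quinone reductase, was at 5.58, 7.39 and 5.39 CPM in HFD+RE and 11, 8.8 and 13.8 CPM in HFD (-0.87, SE 0.25, adjusted p = 0.304). Ugdh, which makes the sugar for glucuronidation, was at 98.6, 107 and 96.7 CPM in HFD+RE and 154, 167 and 166 CPM in HFD (-0.69, SE 0.17, adjusted p = 0.282). Among secreted liver proteins, Enho, the gene of adropin, was at 20, 14.7 and 19.6 CPM in HFD+RE and 3.64, 11.4 and 4.13 CPM in HFD (1.51, SE 0.41, adjusted p = 0.304). Igfbp2, an IGF-binding protein, was at 282, 306 and 295 CPM in HFD+RE and 107, 143 and 106 CPM in HFD (1.31, SE 0.29, adjusted p = 0.261). Tff3, a trefoil peptide, was at 7, 1.34 and 9.2 CPM in HFD+RE and 0.448, 0.4 and 0.572 CPM in HFD (3.61, SE 0.77, adjusted p = 0.235). DESeq2 called Ugdh, Enho, Igfbp2 and Tff3.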
